A study of Mus musculus with 21 samples.

Results

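The T cell receptor V genes are the germline segments from which the variable part of each receptor chain is taken, Trav for the alpha chain and Trbv for the beta chain. They were chosen by symbol, Trav or Trbv followed by a number, and 146 of the 51201 genes in the deposited count tables met the rule. Of these, 111 were Trav genes on chromosome 14, with 18 annotated as pseudogenes, and 35 were Trbv genes on chromosome 6, with 13 annotated as pseudogenes. The Trav genes fell into 23 subgroups (the number after Trav), whose members are recent copies of one another, and the Trbv genes into 31. The annotation holds a further 17 Trav and Trbv genes, each identical in sequence to a member, so a member's reads can include those of such a copy.

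Splenic T cells of C57BL/6J mice at postnatal day 35 were profiled by polyA RNA sequencing. L-gp130fl/+;CD4Cre+/- mice (called L-gp130) carry an allele of gp130, the signalling chain of the interleukin-6 receptor family, that is active without ligand once Cre has acted. The controls were CD4Cre+/- mice, so every mouse carried the Cre, which is driven by the Cd4 promoter and therefore acts in developing cells of both the CD4 and the CD8 lineage. There were 6 L-gp130 and 6 control libraries of CD4+ cells, taken by positive bead selection, and 3 L-gp130 and 6 control libraries of CD8+ cells, taken by negative selection, which leaves any cell that the depletion missed. The labels number the mice within each group and do not say whether a CD4 and a CD8 library came from one mouse. Labelled males gave 4 of 6 CD4 and 2 of 3 CD8 libraries of L-gp130 mice, and 1 of 6 CD4 and 4 of 6 CD8 libraries of controls, and labelled sex was a covariate in every test.

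Developing T cells join a V segment to a J segment at the alpha locus, and a V, a D and a J segment at the beta locus, and most later express 1 receptor. The V segment encodes the framework and the first and second complementarity-determining loops, which mainly touch the MHC molecule, and ends just after the cysteine where the third, most variable loop begins. CD4 cells are selected on MHC class II and CD8 cells on class I, and their V gene usage is known to differ in mice. A few V genes mark invariant cells: Trav11 joined to Traj18 makes the alpha chain of invariant NKT cells, which see lipids on CD1d, and Trav1 joined to Traj33 makes that of MAIT cells, which see vitamin B2 precursors on MR1. In bulk RNA a V gene's reads reflect both the number of cells that use it and the receptor RNA in each, and these cannot be told apart.

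The stretch where V genes differ, and where reads of near-identical copies can be split, is shown for the pair Trbv12-1 and Trbv12-2, because they had the largest Trbv differences between CD4 and CD8 cells in controls. These are the last 150 bases of each transcript in GENCODE release M21 (build GRCm38), 5′ to 3′, with capitals at the 14 bases where the pair differs (90.7% identity). Trbv12-1 lies at chr6:41113550-41114067 and Trbv12-2 at chr6:41118851-41119364, both on the plus strand.
Trbv12-1: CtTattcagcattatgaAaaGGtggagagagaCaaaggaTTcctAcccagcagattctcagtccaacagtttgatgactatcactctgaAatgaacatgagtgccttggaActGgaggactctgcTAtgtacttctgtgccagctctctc
Trbv12-2: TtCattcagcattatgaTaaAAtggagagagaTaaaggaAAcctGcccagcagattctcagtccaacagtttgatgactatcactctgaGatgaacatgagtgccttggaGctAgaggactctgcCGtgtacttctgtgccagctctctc
Their last bases, which encode the start of the third loop, are the same, and the differences lie before it.

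The last 45 bases of the other genes that the results turn on follow, with capitals at the conserved cysteine codon. It was found as the last match to TACNNNTGT or TATNNNTGT on the coding strand, a pattern held by the last 45 bases of 19 of 22 Trbv and 83 of 93 Trav genes that are not pseudogenes. Trbv14 (chr6:41135145-41135616), Trbv17 (chr6:41163062-41163556) and Trbv29 (chr6:41271394-41271881) leaned to CD8 cells. Trbv20 (chr6:41188273-41188977) and Trbv31 (chr6:41557691-41558452, minus strand, the others plus) leaned to CD4 cells.
Trbv14: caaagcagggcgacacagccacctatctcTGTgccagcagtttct
Trbv17: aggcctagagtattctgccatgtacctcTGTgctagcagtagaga
Trbv29: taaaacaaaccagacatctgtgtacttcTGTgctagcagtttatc
Trbv20: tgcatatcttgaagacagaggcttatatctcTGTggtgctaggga
Trbv31: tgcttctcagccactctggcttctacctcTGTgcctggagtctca

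The Trav genes shown are Trav16 (chr14:53743104-53743705), which leaned to CD8 cells, Trav4d-4 (chr14:52990866-52991389) and Trav4-4-dv10 (chr14:53683647-53684177), which leaned to CD4 cells, and Trav14d-1 (chr14:52855614-52856166) and Trav11 (chr14:53519303-53519859), which differed between the genotypes. All 5 are on the plus strand.
Trav16: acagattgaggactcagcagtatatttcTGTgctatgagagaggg
Trav4d-4: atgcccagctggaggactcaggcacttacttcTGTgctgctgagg
Trav4-4-dv10: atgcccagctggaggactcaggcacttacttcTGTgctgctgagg
Trav14d-1: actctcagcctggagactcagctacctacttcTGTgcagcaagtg
Trav11: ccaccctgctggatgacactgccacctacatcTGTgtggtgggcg
Trav4d-4 and Trav4-4-dv10 are identical over these bases, and they share over 60% of their stretches of 31 bases (62.0% of those of Trav4d-4). Of the stretches of 31 bases in a Trbv gene, a median of 100% occurred in no other transcript, against 34.5% for Trav genes, and 16 of 93 Trav genes had under 10% of their own. Trav genes were therefore also summed to subgroups. The lowest Trbv values were 21.3% for Trbv5 and 26.4% for Trbv4, both of which share their sequence with transcripts of the gene model 5830405F06Rik.

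A library held 17.2 to 35.8 M reads (M is 1000000) assigned to genes, of which 2523 to 8549 were Trav and 3836 to 12507 Trbv reads. Control CD4 libraries were deeper (27.8 to 35.8 M) than L-gp130 CD4 libraries (17.8 to 21.2 M), so depth went with genotype in CD4 cells, whereas CD8 libraries of both genotypes had 17.2 to 19.5 M reads. A V gene at 0 reads could still have held up to 0.119% of Trav or 0.0782% of Trbv reads in the shallowest library. Summed CD4 markers (Cd4, Cd40lg, Zbtb7b) were 695 to 1090 counts per 1000000 (CPM) in CD4 libraries and 26.5 to 49.2 in CD8 libraries, and summed CD8 markers (Cd8a, Cd8b1, Runx3) 127 to 223 and 1575 to 2609 CPM. L-gp130 CD4 replicate 1 stood apart, with the lowest Cd4 (520 CPM), the highest Cd8a of the CD4 libraries (92.3 CPM, others 7.61 to 28.7), Lyz2 at 936 CPM and the fewest V reads (145 Trav and 207 Trbv reads per 1000000). Control CD4 replicate 5 was labelled female but its X- and Y-linked reads went against that label. Both were kept. Some results are also given without L-gp130 CD4 replicate 1 or without both libraries.

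Usage was unequal but broad. Shares below are percentages of a library's Trav or Trbv reads. The 19 Trbv genes with a mean share of at least 1% made up 98.3% to 99.3% of Trbv reads, and 39 such Trav genes made up 74.7% to 78.8% of Trav reads. The Trbv genes with the highest mean share over the 21 libraries were Trbv13-2 (9.44%), Trbv16 (8.78%), Trbv3 (8.37%), Trbv1 (7.52%) and Trbv19 (6.23%). Per length (transcripts per 1000000, TPM, summed per gene), the order was led by Trbv13-2 (13.4% of Trbv TPM), Trbv16 (7.82%) and Trbv13-3 (7.72%). By reads, Trbv16 had the highest share in 9 of 9 CD8 libraries and in 0 of 12 CD4 libraries. The CD4 libraries were led by Trbv13-2 (5 libraries), Trbv3 (4) or Trbv1 (3). Per length, Trbv13-2 was above Trbv16 in CD8 cells too. Mean shares of Trbv TPM were 11.9% and 8.70% in control and 12.5% and 9.14% in L-gp130 CD8 libraries. Pseudogenes summed to 0.198% to 0.516% of Trbv and 0.267% to 0.757% of Trav reads, with Trbv24 (0.296% on average) and Trav8-2 (0.196%) the highest. No read fell on 7 Trbv members, all pseudogenes, or on 7 Trav members, 5 of them pseudogenes.

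**Figure D1:**
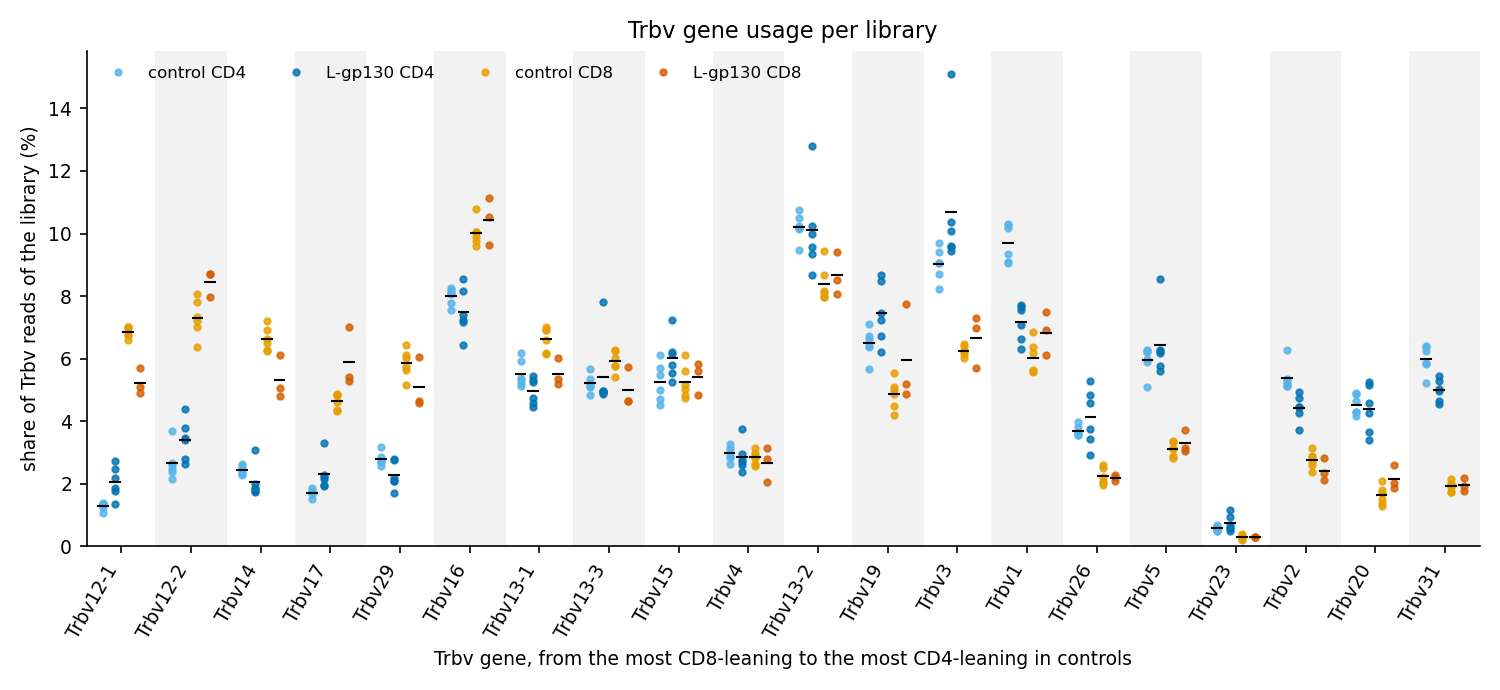
Share of a library's Trbv reads (y axis, percent) for the 20 Trbv genes with a mean share of at least 0.5%, ordered along the x axis from the most CD8-leaning to the most CD4-leaning in controls; points are libraries, coloured by group, and bars are group means. Trbv12-1, Trbv12-2, Trbv14, Trbv17 and Trbv29 lie higher in CD8 libraries and Trbv31, Trbv20, Trbv2 and Trbv5 higher in CD4 libraries, in both genotypes, and the single high points of Trbv3 (15.1%) and Trbv13-3 (7.82%) are L-gp130 CD4 replicate 1.

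The first comparison set CD4 against CD8 cells in controls. Of the 22 Trbv genes that passed the low count filter, 8 were higher and 8 lower in CD4 cells, and of 83 Trav genes 18 were higher and 10 lower (edgeR quasi-likelihood test, Benjamini-Hochberg adjusted p under 0.05). Over all 15758 genes 51.4% were called (24.3% higher, 27.2% lower), so the shares of Trbv (72.7%) and Trav (33.7%) genes called lie above and below that background. The median log2 fold change, CD4 over CD8, was -0.10 for Trbv, 0.19 for Trav and -0.02 for all genes.

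Trbv12-1 had the largest Trbv difference. Its share was 1.05%, 1.35% and 1.39% (lowest, median and highest library) in control CD4 and 6.59%, 6.87% and 7.01% in control CD8 cells. The groups lay far apart, with a log2 fold change of -2.72 ± 0.18 (SE, adjusted p = 2.3e-10, edgeR). Its neighbour Trbv12-2 was at 2.14%, 2.54% and 3.69% in CD4 and 6.37%, 7.27% and 8.06% in CD8 cells, a log2 fold change of -1.79 ± 0.18. Both Trbv12 genes were thus lower in every control CD4 library than in any control CD8 library, although their sequences differ over the stretch shown above.

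Trbv14 (2.28% to 2.64% in control CD4, 6.25% to 7.21% in control CD8), Trbv17 (1.5% to 1.87%, 4.32% to 4.86%) and Trbv29 (2.56% to 3.18%, 5.16% to 6.42%) were lower in CD4 cells, with log2 fold changes of -1.72, -1.71 and -1.34. In the other direction, Trbv31, the V gene that lies downstream of the constant genes in opposite orientation, was at 5.23%, 6.05% and 6.4% in CD4 and 1.75%, 1.93% and 2.16% in CD8 cells. Its log2 fold change was 1.30 ± 0.15 (adjusted p = 3.62e-07, edgeR). Trbv20 was at 4.17% to 4.90% in CD4 and 1.28% to 2.08% in CD8 cells (log2 fold change 1.09 ± 0.19). None of these groups overlapped.

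Of the most used Trbv genes, Trbv13-2 (9.48% to 10.8% in control CD4, 7.97% to 9.44% in control CD8), Trbv3 (8.21% to 9.70%, 6.02% to 6.47%), Trbv1 (9.05% to 10.3%, 5.59% to 6.84%) and Trbv19 (5.66% to 7.12%, 4.2% to 5.53%) had higher shares in CD4 cells without overlap, and Trbv16 (7.56% to 8.27%, 9.61% to 10.8%) a lower one. The test, which scales to all genes and not to Trbv reads, called Trbv16 (log2 fold change -0.67), Trbv1 (0.33) and Trbv3 (0.24) but not Trbv13-2 (-0.03, adjusted p = 0.833, edgeR) or Trbv19 (-0.01, adjusted p = 0.964). Counting all members, the shares of 16 Trbv and 26 Trav genes did not overlap between the 2 control groups. In CPM, 5 Trbv genes were higher and 8 lower without overlap, of 22 tested, and 15 and 10 Trav genes, of 83, against 37.6% of all genes.

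Among the Trav genes, Trav4d-4 was at 1.80%, 1.97% and 2.32% of Trav reads in control CD4 and 0.415%, 0.703% and 1.05% in control CD8 cells. The log2 fold change was 1.58 ± 0.19 (adjusted p = 1.07e-06, edgeR). Trav14d-3-dv8 (log2 fold change 1.09), Trav7-4 (0.97) and Trav9-4 (1.27) were also higher in CD4 cells. Trav16 was lower, at 0.823%, 1.10% and 1.32% in CD4 and 1.94%, 2.34% and 2.94% in CD8 cells, with a log2 fold change of -1.22 ± 0.17. By reads, Trav9d-3, noted after its values were seen, had the highest share of all Trav genes in 9 of 9 CD8 libraries. Its share was 4.12% to 5.82% in control CD8 and 1.65% to 1.95% in control CD4 libraries. Per length, Trav9d-3 was below Trav6d-6 in mean share in CD8 libraries of both genotypes. In L-gp130 CD8 libraries the mean shares of Trav TPM were 2.09% (Trav9d-3) and 4.84% (Trav6d-6).

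The same leaning was seen when the copies were summed. The Trav14 subgroup held 16.1%, 16.7% and 18.1% of Trav reads in control CD4 and 11.4%, 12.5% and 13.3% in control CD8 cells. Trav7 held 11.4% to 13.3% and 8.58% to 10.3%, and Trav12 held 6.60% to 7.80% and 11.9% to 13.4%. None of these 3 subgroups overlapped, with log2 fold changes of 0.59 (Trav14), 0.58 (Trav7) and -0.60 (Trav12), all called. Trav6 (13% to 13.4% and 11.9% to 13.9%) and Trav9 (11.9% to 13.5% and 11.5% to 13.4%) overlapped and were not called (adjusted p = 0.389 and 0.549, edgeR). Of 19 Trav subgroups tested, 5 were higher and 3 lower (42.1% called), beside 51.4% of all genes called in the fit of single genes.

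**Figure D2:**
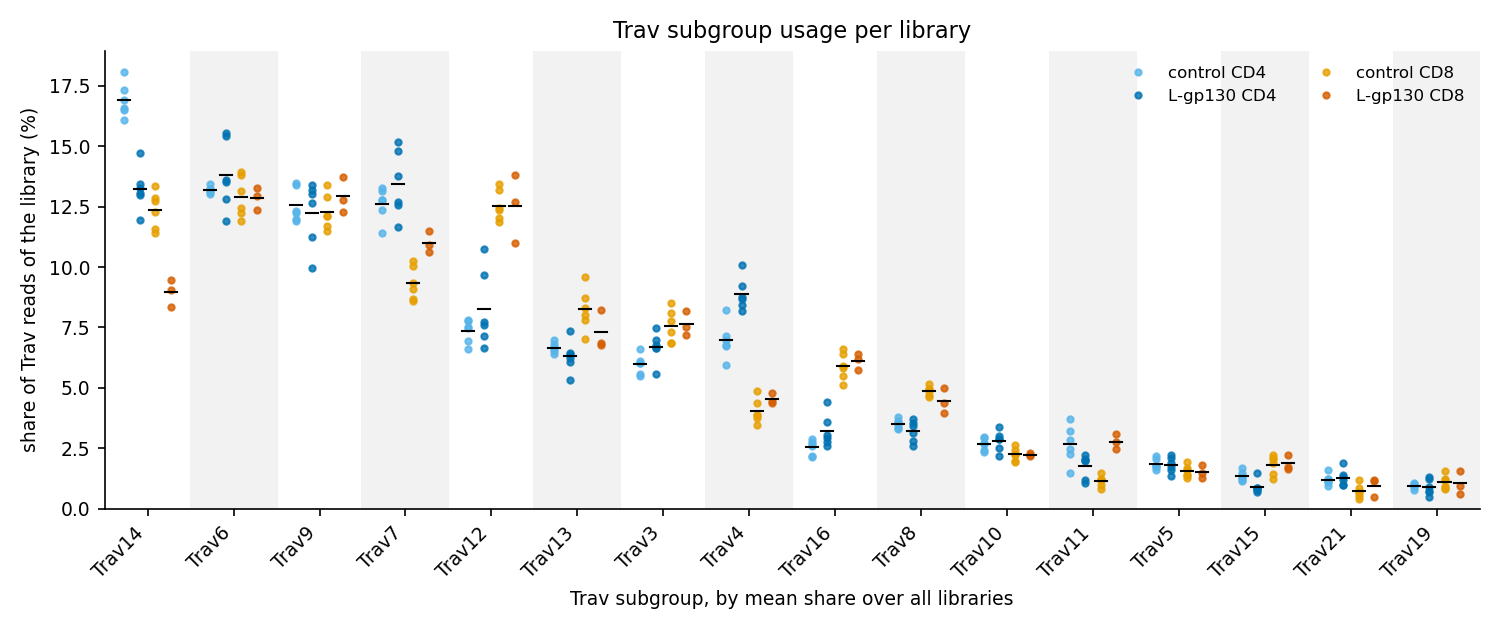
Share of a library's Trav reads (y axis, percent) for the 16 Trav subgroups with a mean share of at least 0.9%, in order of mean share (x axis); points are libraries, coloured by group, and bars are group means. Trav14 and Trav4 lie higher in CD4 libraries and Trav12 and Trav16 higher in CD8 libraries, and Trav14 is lower in L-gp130 than in control libraries of either cell type.

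The L-gp130 libraries gave the same comparison in mice not used above. In them 7 Trbv genes were higher and 6 lower in CD4 cells, of 22, and 25 Trav genes were higher and 6 lower, of 83, against 47.8% of all genes called (24.9% higher, 22.9% lower). In CPM, 5 Trbv genes were higher and 5 lower without overlap, and 15 and 4 Trav genes, against 37.7% of all genes. All 13 Trbv genes called were also called in controls, in the same direction, which is 81.2% of the 16 called there. Of the Trav calls 20 were shared, 71.4% of the 28 in controls and 64.5% of the 31 in L-gp130 mice, all in the same direction. Across genes, which are not independent replicates, the log2 fold changes of the 2 genotypes had a Pearson r of 0.95 over 22 Trbv genes and 0.75 over 83 Trav genes. When each library was scaled to its own Trav or Trbv total, which asks about usage alone, the L-gp130 calls were 17 higher and 16 lower in place of 32 and 12, and those in controls 25 and 20 in place of 26 and 18. That scaling moved the fold changes of the L-gp130 comparison by -0.40 (Trav) and -0.08 (Trbv) on the log2 scale, and those of the control comparison by -0.11 and 0.32.

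Trbv14 was at 1.74% to 3.08% in L-gp130 CD4 and at 4.80%, 6.11% and 5.06% in the 3 L-gp130 CD8 libraries, a log2 fold change of -1.32 ± 0.15 (adjusted p = 8.14e-07, edgeR). Trbv31 was at 4.54% to 5.43% in L-gp130 CD4 and 2.20%, 1.77% and 1.92% in L-gp130 CD8 libraries (log2 fold change 1.43 ± 0.18). Trav4d-4 (1.69 ± 0.23), Trbv12-2 (-1.23 ± 0.19), Trbv17 (-1.25 ± 0.21), Trbv29 (-1.08 ± 0.17), Trbv20 (1.13 ± 0.23) and Trav16 (-0.84 ± 0.19) kept the direction seen in controls and were called. Trav14d-3-dv8 (1.07), Trav7-4 (0.83) and Trav9-4 (1.05) were also called. For Trbv12-1 the log2 fold change was -1.24 ± 0.20, smaller in size than the -2.72 of controls.

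**Figure D3:**
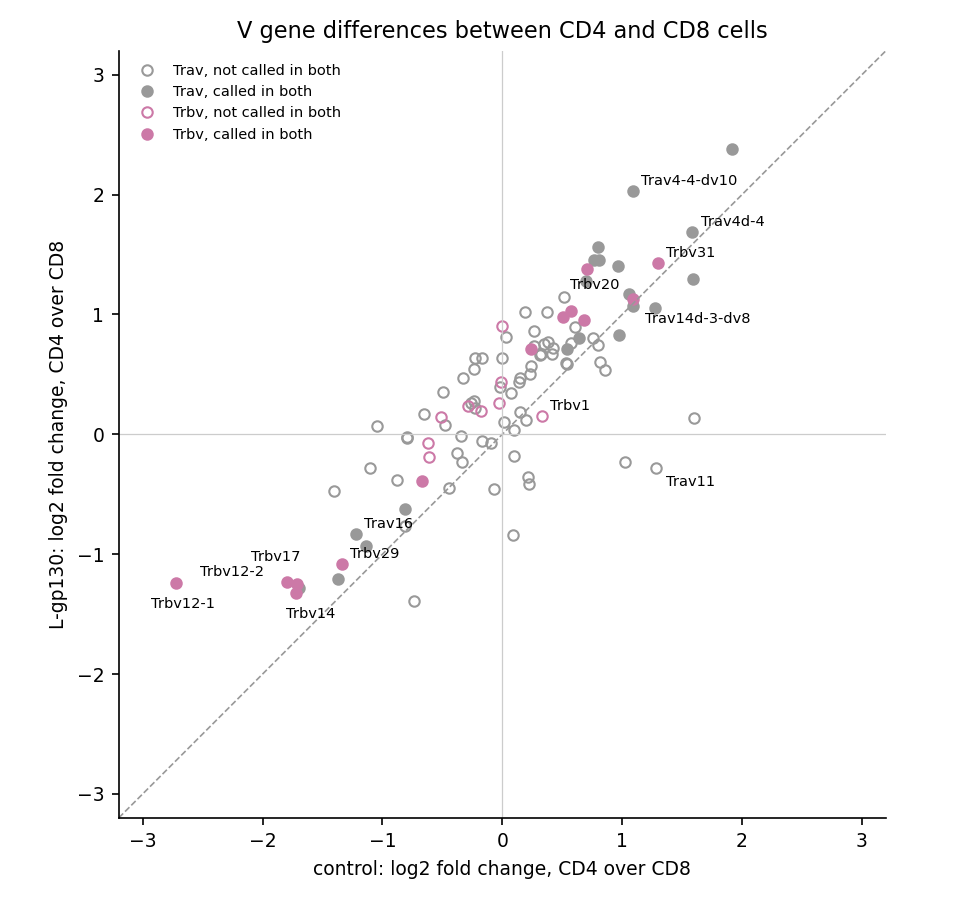
Log2 fold change, CD4 over CD8, in controls (x axis) and in L-gp130 mice (y axis) for the 105 V genes tested; pink points are Trbv, grey points Trav, filled points were called in both comparisons, and the dashed line marks equal values. Trbv genes run from the lower left to the upper right (r of 0.95), with Trbv12-1 above the line (-2.72 and -1.24) and Trav11 below it (1.28 and -0.28).

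The next comparison set L-gp130 against control CD4 cells. Few V genes were called: 0 of 22 Trbv genes, and of 81 Trav genes 1 higher and 2 lower, against 18.9% of all 15016 genes (11.1% higher, 7.75% lower). At an unadjusted p under 0.05, a looser threshold that at least 18.9% of all genes met, there were 2 Trbv and 7 Trav genes. Trav14d-1 was lower in L-gp130 cells, Trav4-4-dv10 higher and Trav12d-1 lower. Median log2 fold changes were -0.01 (Trbv), 0.06 (Trav) and -0.01 (all genes).

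Trav14d-1 was at 1.94%, 2.48% and 3.38% (lowest, median and highest) in L-gp130 CD4 and 3.79%, 4.76% and 5.07% in control CD4 libraries. The groups did not overlap, and the log2 fold change was -0.86 ± 0.24 (adjusted p = 0.0254, edgeR). The call was lost without L-gp130 CD4 replicate 2 (adjusted p = 0.0555), L-gp130 CD4 replicate 6 (0.0725) or control CD4 replicate 1 (0.171), with log2 fold changes of -0.89, -0.91 and -0.74. Trav4-4-dv10 was at 2.94%, 3.05% and 4.40% in L-gp130 and 1.73%, 2.16% and 2.45% in control CD4 libraries. These groups did not overlap either, with a log2 fold change of 0.74 ± 0.21 (adjusted p = 0.0256). Its highest library, L-gp130 CD4 replicate 6, carried part of that: without it the log2 fold change was 0.49 (adjusted p = 0.209). The call was also lost without control CD4 replicate 3 (0.0534), 4 (0.0508) or 6 (0.056), and scaled to Trav reads alone (0.70, adjusted p = 0.0873). The Trav4 subgroup, summed over its copies, was higher by 0.45 ± 0.14 (adjusted p = 0.0423, 8.18% to 10.1% in L-gp130 and 5.97% to 8.21% in control libraries). Trav12d-1 (0.277% to 0.821% in L-gp130, 0.481% to 0.788% in control libraries) overlapped, and its call (log2 fold change -0.75 ± 0.24, adjusted p = 0.0454) was lost in 9 of the 12 fits that left out 1 library (adjusted p up to 0.185).

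Among the most used genes, Trbv1 had a lower share in L-gp130 CD4 cells, at 6.31%, 7.32% and 7.71% against 9.05%, 9.77% and 10.3% in controls. The shares did not overlap, but the test did not call the gene (log2 fold change -0.43 ± 0.17, adjusted p = 0.0869, edgeR). It passed without L-gp130 CD4 replicate 1 (-0.37, adjusted p = 0.0371) or control CD4 replicate 4 (-0.51, adjusted p = 0.0404). Leaving out other single libraries gave no call, with adjusted p up to 0.404. Log2 fold changes in these fits ran from -0.51 to -0.29. Trbv2 (3.73% to 4.93% against 5.12% to 6.27%) and Trbv17 (1.94% to 3.32% against 1.5% to 1.87%) also had shares that did not overlap, and neither was called. In all, the shares of 3 of 35 Trbv and 5 of 111 Trav genes did not overlap. In CPM, 0 of 22 Trbv and 0 of 81 Trav genes tested did not overlap, against 13.5% of all genes. Trbv13-2, Trbv16, Trbv3 and Trbv19 overlapped and were not called (adjusted p = 0.867, 0.820, 0.203 and 0.361).

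In CD8 cells the summed V reads themselves were lower in L-gp130 mice. Of each library's reads per 1000000, Trbv took 288, 304 and 278 in the 3 L-gp130 libraries and 342, 391 and 406 (lowest, median and highest) in the 6 controls, without overlap. Trav took 147 to 170 and 181 to 210 reads per 1000000, also without overlap. The constant gene Trbc2 (log2 fold change -0.32, adjusted p = 0.0062, edgeR) and 3 of the 4 CD3 chain genes were also lower, while the constant genes Trac (-0.10, adjusted p = 0.373) and Trbc1 (-0.20, adjusted p = 0.0569) were not called. Also lower were Cd8b1 (-0.67, adjusted p = 0.0015) and Cd8a (-0.36, adjusted p = 0.0112). Their part in the V gene counts was not tested.

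Against this, 7 of 22 Trbv genes were lower and 0 higher in L-gp130 CD8 cells, and of 79 Trav genes 1 was higher and 3 lower, against 21% of all 14254 genes (10.5% higher and 10.5% lower). The Trbv genes were Trbv12-1, Trbv13-1, Trbv14, Trbv2, Trbv13-3, Trbv29 and Trbv4. The 11 calls became 23 on Salmon reads summed per gene and 6 without any 1 of the 3 L-gp130 libraries. Scaled to its own Trav or Trbv total, which moved fold changes by 0.22 (Trav) and 0.35 (Trbv) on the log2 scale, the comparison called 1 gene higher (Trav11) and 2 lower (Trav14d-1 and Trbv12-1) in place of 1 and 10. The median log2 fold change, -0.30 for Trbv and -0.20 for Trav genes before, was 0.05 and 0.02 after, beside -0.01 for all genes.

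Trbv12-1 was at 5.69%, 5.09% and 4.89% in L-gp130 CD8 libraries and 6.59%, 6.87% and 7.01% in controls. All 3 L-gp130 libraries were below every control, with a log2 fold change of -0.73 ± 0.10 (adjusted p = 0.000905, edgeR), and -0.38 ± 0.12 (adjusted p = 0.0228) within Trbv reads. Trbv13-1 was at 6.01%, 5.35% and 5.19% against 6.15%, 6.74% and 7.02%, and Trbv14 at 4.80%, 6.11% and 5.06% against 6.25%, 6.57% and 7.21%. Neither overlapped, but within Trbv reads neither was called (-0.25 and -0.29, adjusted p = 0.121 and 0.0858). Trbv2 (2.84%, 2.33% and 2.11% against 2.39% to 3.16%) and Trbv13-3 (4.65%, 4.64% and 5.75% against 5.42% to 6.28%) overlapped. The call of Trbv2 was lost without L-gp130 CD8 replicate 3 (adjusted p = 0.0575), and that of Trbv13-3 without replicate 1 (0.0755) or 2 (0.0539). Trbv17 went the other way in share (5.27%, 7.00% and 5.43% against 4.32% to 4.86%, no overlap) and was not called (log2 fold change 0.02, adjusted p = 0.943). In all, the shares of 4 Trbv and 4 Trav genes did not overlap. In CPM, 7 of 22 Trbv genes were lower and 0 higher without overlap, and of 79 Trav genes 6 were lower and 1 higher, against 24.1% of all genes.

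Of the Trav14 genes, Trav14d-1 was called lower in L-gp130 cells of both types. Trav14-1 was called lower in CD8 cells only, by a factor of 1.89. Its mean share there was 1.03% in L-gp130 and 1.69% in control libraries, without overlap. In CD8 cells Trav14d-1 was at 2.31%, 2.34% and 1.76% of Trav reads in L-gp130 libraries and 3.05%, 3.86% and 4.41% in controls, without overlap. The log2 fold change was -1.02 ± 0.18 (adjusted p = 0.00329, edgeR), and -0.79 (adjusted p = 0.0106) within Trav reads. Trav14d-1 was the only V gene called in both CD4 and CD8 cells, and those comparisons have no library in common. Its row also holds the reads of the identical copy Trav14n-1, and it shares 38.2% of its 31-base stretches with Trav14d-2, which was lower but not called in either cell type (-0.49 in CD4, adjusted p = 0.0976, and -0.55 in CD8, adjusted p = 0.0825).

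The copies were also summed. The Trav14 subgroup held 11.9%, 13.2% and 14.7% of Trav reads in L-gp130 CD4 and 16.1%, 16.7% and 18.1% in control CD4 libraries. In CD8 cells it held 9.04%, 9.45% and 8.36% in L-gp130 and 11.4%, 12.5% and 13.3% in control libraries. Neither cell type's groups overlapped. The test called the subgroup in CD8 cells (-0.65 ± 0.12, adjusted p = 0.00459) and not in CD4 cells (-0.32 ± 0.18, adjusted p = 0.224).

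The invariant NKT gene Trav11 was the 1 V gene called higher in L-gp130 CD8 cells. It was at 3.04%, 2.58% and 2.46% of Trav reads in the L-gp130 libraries and 0.775%, 1.12% and 1.38% in the 6 controls. The lowest L-gp130 library was above the highest control, and the log2 fold change was 1.10 ± 0.25 (adjusted p = 0.0118, edgeR), and 1.32 ± 0.26 (adjusted p = 0.00329) within Trav reads. The call was lost without L-gp130 CD8 replicate 1 (1.03, adjusted p = 0.0632). In CD4 cells Trav11 was at 1.07%, 1.92% and 2.23% in L-gp130 and 1.49%, 2.59% and 3.61% in control libraries. These ranges overlapped, and the gene was not called (-0.43 ± 0.31, adjusted p = 0.344).

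In controls Trav11 was higher in CD4 than in CD8 cells (log2 fold change 1.28 ± 0.24, adjusted p = 0.000151, edgeR), and in L-gp130 mice it was not called (-0.28, adjusted p = 0.39). Its copy Trav11d, with which Trav11 shares 99.7% of its 31-base stretches, was listed at 0 in every library, so the reads of both stand at Trav11. Of the other invariant NKT markers, Zbtb16, the transcription factor PLZF of innate-like T cells, was at 27.0, 35.4 and 16.6 CPM in CD8 libraries of L-gp130 mice and 5.54 to 10.5 CPM in those of controls (log2 fold change 1.73 ± 0.27, adjusted p = 0.00209), and Traj18 was at 0 in all libraries. In CD4 cells Zbtb16 was not called (0.75 ± 0.51, adjusted p = 0.332).

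Among markers of gamma-delta T cells, gamma chain genes were also higher in L-gp130 CD8 libraries, and delta chain genes were not. Of 6 markers 4 were called higher (Tcrg-C1, Tcrg-C2, Tcrg-C4 and Trgv2), and the 6 summed to 74.7, 77.0 and 87.7 CPM (lowest to highest) in L-gp130 and 34.8 to 57.4 CPM in control CD8 libraries. Trdc, the delta chain constant gene, was not called (15.7 ± 1.77 and 18.6 ± 3.73 CPM, SD, n = 3 and 6, adjusted p = 0.208, edgeR). Of 4 delta chain V genes (Trdv) tested, 0 were called, against 21% of all genes, and their median log2 fold change was -0.41. Of the 2 natural killer cell markers, Ncr1 was lower (9.68 ± 1.66 against 20.8 ± 3.79 CPM) and Klrb1c was not called (log2 fold change -0.16, adjusted p = 0.593). The part of such cells in the Trav11 result was not tested. The MAIT gene Trav1 was rare, at 0.767%, 0.483% and 0.396% in CD8 libraries of L-gp130 mice and 0.261% to 0.667% in those of controls, and was not called there (adjusted p = 0.672) or in CD4 cells (adjusted p = 0.817).

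**Figure D4:**
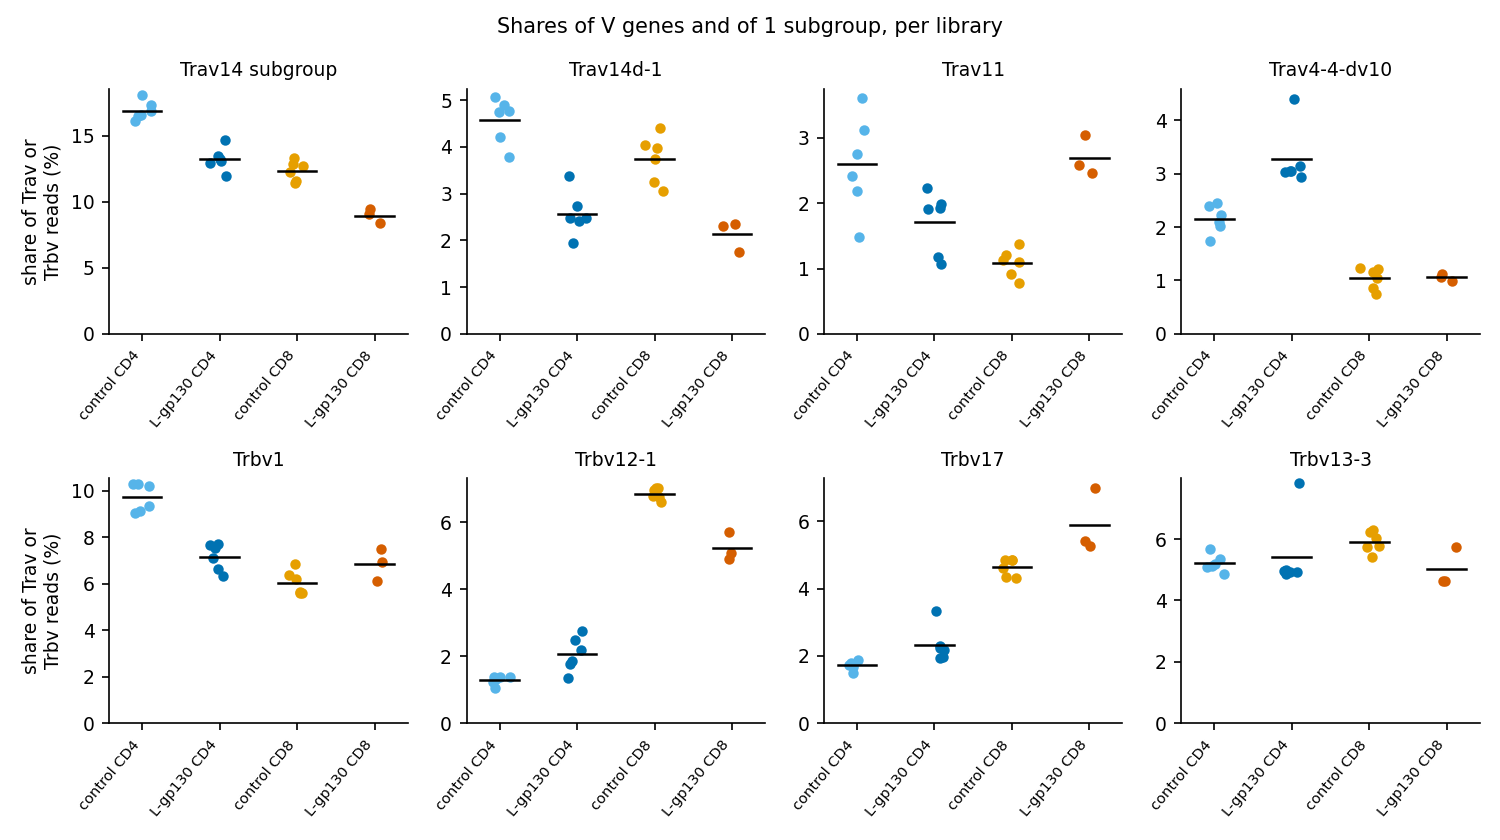
Share of Trav or Trbv reads (y axis, percent, from 0) in each library for the Trav14 subgroup and 7 V genes, by group (x axis); bars are group means. The Trav14 subgroup and Trav14d-1 are lower in L-gp130 libraries of both cell types, Trav11 is higher in L-gp130 than in control CD8 libraries (3.04%, 2.58% and 2.46% against 0.775% to 1.38%), and Trbv12-1 is lower in L-gp130 CD8 libraries.

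Whether the genotype difference itself differed between CD4 and CD8 cells was tested in 1 fit over all 21 libraries. Of 105 V genes, 3 were called, against 3.46% of all genes (1.83% higher, 1.62% lower): Trbv12-1, Trbv13-3 and Trav11. For Trbv12-1 the difference of the log2 fold changes, CD4 minus CD8, was 1.48 ± 0.27 (adjusted p = 0.00374, edgeR). Its share was 1.36%, 2.03% and 2.74% in L-gp130 CD4 beside 1.05%, 1.35% and 1.39% in control CD4 libraries, so it ranged higher in L-gp130 CD4 cells and lower in L-gp130 CD8 cells. In CD4 cells alone it was not called (log2 fold change 0.72 ± 0.25, adjusted p = 0.0615). Without L-gp130 CD4 replicate 1, the library that overlapped the controls, it was (0.80, adjusted p = 0.0057). Leaving out any other single library gave no call, with adjusted p up to 0.262 and log2 fold changes down to 0.58.

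For Trav11 the difference was -1.56 ± 0.35 (adjusted p = 0.0135, edgeR). Without L-gp130 CD8 replicate 1 it was -1.47 (adjusted p = 0.0679). For Trbv13-3 it was 0.66 ± 0.14 (adjusted p = 0.0132). It lost its call without L-gp130 CD8 replicate 1 (adjusted p = 0.0850) or 2 (0.0505), and within Trbv reads (0.29, adjusted p = 0.358), and its share in L-gp130 CD4 replicate 1 (7.82%) stood above the other 5 (4.86% to 4.98%). Without replicate 1 of L-gp130 CD4, 8 V genes were called in place of 3. Within Trav or Trbv reads Trbv12-1 (1.08, adjusted p = 0.0112) and Trav11 (-1.85, adjusted p = 0.011) remained called, and Trbv1 was added (-0.57 ± 0.14, adjusted p = 0.0318).

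Evenness was computed per library as the Shannon entropy of the shares divided by its maximum, so that 1 means equal use of all genes. In CD4 cells Trbv evenness was 0.785 to 0.818 for L-gp130 mice and 0.803 to 0.807 for controls. In CD8 cells the values were 0.805 to 0.812 and 0.807 to 0.811. The lowest value was L-gp130 CD4 replicate 1, in which Trbv3 alone held 15.1% of Trbv reads (others of its group 9.46% to 10.4%). Trav evenness in CD4 cells was 0.873 to 0.882 for L-gp130 mice and 0.877 to 0.886 for controls, and in CD8 cells 0.869 to 0.881 and 0.873 to 0.879. The genotypes overlapped in both cell types and at both loci. For Trav in CD4 cells only L-gp130 CD4 replicate 6 (0.882) lay among the controls, and the other 5 (0.873 to 0.876) were below the lowest control (0.877). L-gp130 CD4 libraries also held fewer Trav reads (2687 to 5321) than control CD4 libraries (6151 to 8549), and the part of depth was not tested. The difference in mean Trav evenness, L-gp130 minus control in CD4 cells, was -0.00584 over genes and 0.00193 over subgroups. Control CD4 and control CD8 cells did not overlap for Trbv, by a narrow margin (highest CD4 0.80699, lowest CD8 0.80731), and that order turned when shares were taken per length. The highest CD4 value was that of control CD4 replicate 5, and the others of its group reached 0.8045.

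**Figure D5:**
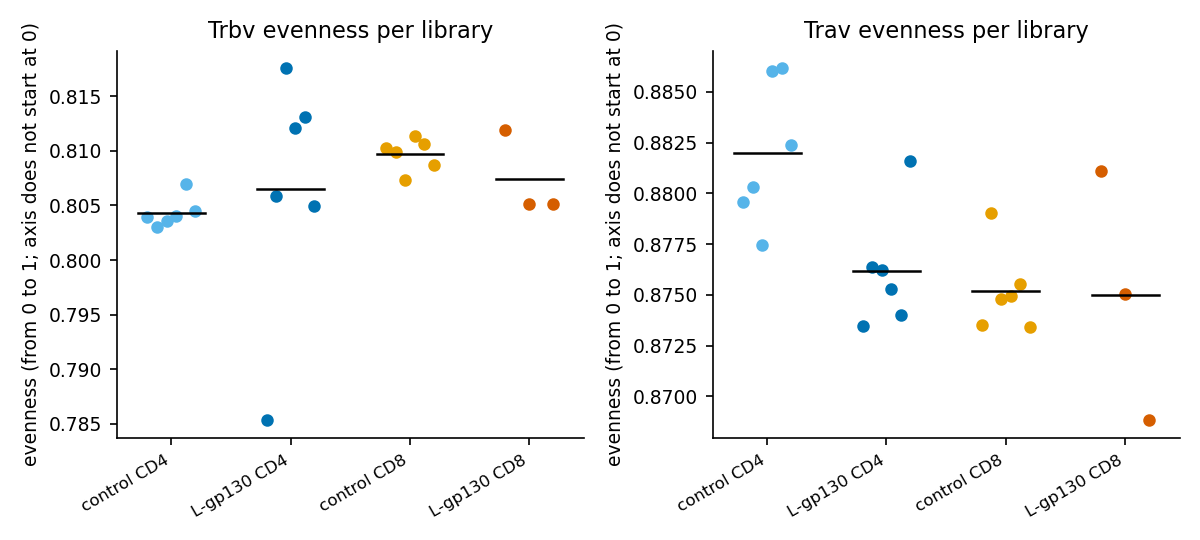
Evenness of Trbv (left) and Trav (right) usage per library (y axis, from 0 for 1 gene to 1 for equal use, not starting at 0), by group (x axis); bars are group means. Trbv evenness spreads more among the 6 L-gp130 CD4 libraries (0.785 to 0.818) than among the 6 control CD4 libraries (0.803 to 0.807), with replicate 1 lowest.

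Libraries of a group resembled each other less in Trbv usage in L-gp130 than in control mice. The distance between 2 libraries was taken as the summed difference of their shares over 2, in percent, so that 100% means no gene in common. For Trbv it averaged 8.48% between L-gp130 CD4 libraries (4.83% to 13.9%) and 4.11% between control CD4 libraries (3.18% to 6.52%). Without L-gp130 CD4 replicate 1 the first value was 6.46% (4.83% to 7.49%). In CD8 cells it averaged 7.26% between L-gp130 libraries (6.21% to 8.08%) and 4.13% between control libraries (3.24% to 5.09%), with no overlap. Pairs within a group are not independent, and no test was made.

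Depth moved with these distances: in CD8 cells the libraries of L-gp130 mice held 4789 to 5914 Trbv reads and those of controls 6592 to 7542, and in CD4 cells 3836 to 7829 and 9314 to 12507. The SD of the share was larger in L-gp130 than in control CD4 libraries for 16 of 21 Trbv genes with a mean share of at least 0.2%, 14 of 21 without replicate 1, and larger in L-gp130 than in control CD8 libraries for 17 of 21. For Trav, the distance averaged 14.9% in L-gp130 CD4 libraries (13.2% without replicate 1) and 8.85% in control CD4 libraries. In CD8 cells it averaged 13.4% (12% to 14.4%) in L-gp130 and 12.4% (10.2% to 15.8%) in control libraries, where the ranges overlapped. The SD was larger in L-gp130 libraries for 67 of 80 Trav genes in CD4 cells, 57 of 80 without replicate 1, and for 40 of 80 in CD8 cells. The part of counting error in this spread was not tested.

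The distance between cell types was larger. Control CD4 and control CD8 libraries lay 22.0% to 26.6% apart in Trbv usage and 20.1% to 24.3% in Trav usage. L-gp130 and control libraries of 1 cell type lay 5.62% to 14.6% (CD4) and 5.58% to 10.3% (CD8) apart in Trbv usage. The nearest library was of the same cell type for 21 of 21 libraries at both loci, and of the same group for 19 (Trbv) and 20 (Trav).

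The rest of the receptor locus was described from lists. Of the 4 CD3 chain genes, 0 were higher and 1 lower in L-gp130 CD4 cells (Cd247, log2 fold change -0.35, adjusted p = 0.0377, edgeR), and 0 and 3 in CD8 cells (Cd247 -0.60, Cd3g -0.38 and Cd3d -0.28, all parts of the complex that carries the receptor's signal). Of the 8 constant genes, 7 were tested: 0 were called in CD4 cells, and 3 were higher and 1 lower in CD8 cells, the higher ones being the gamma constant genes Tcrg-C1, Tcrg-C2 and Tcrg-C4 and the lower one Trbc2. Of 10 genes of V(D)J recombination, 0 of 9 tested were called in CD4 cells and 1 of 8, Dntt, was lower in CD8 cells (-0.90 ± 0.26, adjusted p = 0.031), where 10.5% of all genes were called lower. Dntt adds untemplated bases at the joints. J and D segments (60 Traj, 14 Trbj and 2 Trbd) did not pass the filter in any comparison, so joints were not analysed here.

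Across the 22 Trbv genes that are not pseudogenes, Spearman's rho between order along the chromosome and mean share per length was -0.32, and across 93 Trav genes 0.23. For the CD4 to CD8 ratio of shares in controls, rho was 0.10 over 20 Trbv and 0.04 over 80 Trav genes with a share of at least 0.2%. The duplicated copies of the Trav locus, read from the letter in the symbol, held 37.6% ± 1.22 (d copies, 39 genes) and 12.2% ± 1.30 (n copies, 18 genes) of Trav reads in control CD4 and 37.1% ± 1.47 and 15.1% ± 0.69 in control CD8 libraries (SD, n = 6 each), with the reads of identical copies assigned to 1 of them. The n copies ranged from 10.9% to 13.7% in control CD4 and 14.2% to 16.2% in control CD8 libraries and did not overlap.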

How the data were processed

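RNA of 21 libraries was quantified by the submitters. The submitters' processing notes name GRCm38 as the build and list, without role or order, Salmon 1.5.2, edgeR 3.34.1, Trimmomatic 0.39 and cutadapt 3.4. Salmon output with estimated counts (reads) and TPM for every transcript was deposited, per the file headers, beside 1 gene table of estimated counts per cell type. Transcripts were matched to genes with GENCODE mouse release 21, and 694 had no match (0.144% to 0.209% of reads).

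Shares and evenness came from Salmon reads summed per gene, and shares per length from TPM. Genotypes were compared within a cell type on the deposited gene tables, rounded to whole numbers. CD4 and CD8 cells, and the genotype by cell type term, were compared on Salmon reads in 1 fit of all libraries, because the gene tables were scaled to length separately. Tests were edgeR 4.0.16 in R 4.3.3 (filterByExpr by group, TMM, robust quasi-likelihood F test, 2-sided, labelled sex as covariate, Benjamini-Hochberg adjustment over all genes tested, called under 0.05), tested on simulated data. The labels give no cultures or litters, so p-values measure the spread between these mice. Evenness and distances have no test. Values after ± are SEs from the edgeR fit for log2 fold changes, and SDs between libraries where marked SD. The limit for 0 (3 reads) covers counting error only.

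V genes were named by a rule: the 5 Trbv genes and 5 Trav subgroups with the highest mean share, up to 6 called members in each direction per comparison with a mean CPM of at least 1, members called in the genotype by cell type test, Trav11, Trav11d and Trav1, and the top pseudogene of each locus. The members, lists and rule were chosen with earlier results of these data known. Same-numbered samples of different groups were not paired: the labels state no link, and correlations of their deviations ranged from -0.21 to 0.17. Between same-numbered CD4 and CD8 libraries of a genotype they ranged from -0.07 to 0.14. Labelled sex differed between same-numbered CD4 and CD8 libraries for control replicates 2, 4 and 5 and L-gp130 replicates 2 and 3. By their labels these were therefore not from 1 mouse. For control replicate 5 this is uncertain, because the reads of its CD4 library went against the labelled sex. Alternatives were RLE size factors, DESeq2 1.42.0, other filters, scaling to V reads, the other count source, no sex covariate, a replicate block, subgroups, and leaving out libraries.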

Additional observations from a re-analysis of the deposited data

Results flagged for a closer look

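In all, 108 sets of values were checked, each 1 quantity in 1 group (shares of the named genes, evenness and V reads relative to depth). Of these, 13 had a single library far from the rest of its group, with a gap above Dixon's 95% critical value. Chance marks about 1 in 20 sets. L-gp130 CD8 libraries were not checked, because the group holds only 3. L-gp130 CD4 libraries gave 7 of them. In L-gp130 CD4 replicate 1 the share of Trbv3 was 15.1% (others 9.46% to 10.4%) and that of Trbv13-3 was 7.82% (4.86% to 4.98%). Replicate 3 had Trav7-4 at 5.57% (2.87% to 3.67%), replicate 4 had Trbv14 at 3.08% (1.74% to 1.99%) and replicate 5 had Trbv17 at 3.32% (1.94% to 2.30%). Replicate 6 had Trav4-4-dv10 at 4.40% (2.94% to 3.15%) and a Trav evenness of 0.882 (0.873 to 0.876).

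In control CD4 libraries, replicate 2 had Trbv2 at 6.27% (5.12% to 5.35%) and the pseudogene Trav8-2 at 0.119% (0.205% to 0.244%). Replicate 5, the library at odds with its labelled sex, had Trbv12-2 at 3.69% (2.14% to 2.67%) and the highest Trbv evenness of its group, 0.807. In control CD8 replicate 3 the pseudogene Trbv24 was at 0.501% (0.285% to 0.359%) and there were 342 Trbv reads per 1000000 (386 to 406).

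In the edgeR test of whether the genotype difference itself differed between CD4 and CD8 cells, 3 of 105 V genes (2.86%) were called, against 3.46% of all genes. It was 1.48 for Trbv12-1, 0.66 for Trbv13-3 and -1.56 for Trav11, as log2 fold change in CD4 minus that in CD8 cells. Trbv13-3 was not called within Trbv reads (adjusted p = 0.358) or on the joined gene tables (0.132).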

How the results depend on the processing

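Of 261 alternative values for counts of V genes called and for evenness, 227 stayed within the limits (1.5 times for a count, 1 SD for evenness) and 34 moved. The 3 V genes called between genotypes in CD4 cells became 5 with DESeq2, without the sex covariate or without both doubted libraries, 1 with scaling to V reads or with subgroups, and 0 to 6 when 1 library was left out (6 without L-gp130 CD4 replicate 1, 0 without its replicate 6, 1 without its replicate 2 or control replicate 3 or 6). The 11 in CD8 cells became 3 with scaling to V reads, 23 on Salmon reads, 5 with the replicate block, and 6 to 11 with 1 library left out (6 without any 1 of the 3 L-gp130 libraries). The 44 between cell types became 22 in controls and 18 in L-gp130 mice with subgroups, where fewer features were tested, and 5 in L-gp130 mice with the replicate block, which rests on fewer samples. With 1 library left out they were 38 to 49 and 32 to 56. The 3 in the genotype by cell type test became 1 with subgroups, 8 without both doubted libraries and 1 to 8 with 1 library left out (8 without L-gp130 CD4 replicate 1, 1 without L-gp130 CD8 replicate 1).

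Differences in mean evenness were small and changed with how genes were counted. For Trbv, L-gp130 minus control in CD8 cells was -0.00229, and 0.00629 over subgroups or 0.000864 per length. CD4 minus CD8 in controls was -0.00535, and -0.0204 by the inverse Simpson index, 0.0182 over subgroups or 0.00351 per length, and in L-gp130 mice -0.000945, and 0.0125 over subgroups. For Trav, L-gp130 minus control was -0.00584 in CD4 and -0.000217 in CD8 cells, and 0.00193 and 0.00907 over subgroups. CD4 minus CD8 in controls was 0.00678, and -0.00988 over subgroups or 0.00108 per length, and in L-gp130 mice 0.00116, and -0.0170 over subgroups. The cause was not tested.

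Of 1284 alternative values for single genes, 1224 kept direction and side of the threshold (or, for shares, moved by less than 1 SD), 50 lost a call, 9 gained one and 1 reversed: Trbv1 between genotypes in CD8 cells, not called in either case, was 0.17 within Trbv reads against -0.18. Trav14d-1 and Trbv12-1 in CD8 cells held their calls in every setting run. Same-numbered samples share only a number. With the replicate block, Trbv12-1 lost its genotype by cell type call (adjusted p = 0.052, edgeR), Trav11 its call in CD8 cells (0.0659) and Trav4-4-dv10 its call in CD4 cells (0.24). Depth limits V genes below a share of 0.119% (Trav) or 0.0782% (Trbv).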
